A study of Saccharomyces cerevisiae with 4 samples.

Results

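Sterol synthesis genes and their regulators were followed in baker's yeast, Saccharomyces cerevisiae. In the mutant strain histone H3 has glycine instead of lysine at residues 4, 9, 14, 18, 23, 27, 36 and 79, and the other strain is labelled wild type. The module held 33 genes of the 5656 that the array platform's annotation pairs with a probe set of their own. They comprised 9 genes from acetyl-CoA to farnesyl diphosphate, 14 from squalene synthesis to ergosterol, the genes of 2 electron donors, 3 genes of sterol esterification and transfer, and 5 regulators. Members were chosen by gene symbol, and all 33 were found, on 38 probe sets. Each strain was measured on 2 single-colour arrays (n = 2), with RNA of cells grown in rich glucose medium (YPD) to mid-log phase, at an OD600 of 0.5 to 0.7. The values are MAS5 signals, an intensity on a linear scale, and the number of arrays limits their precision. The wild-type arrays also serve a mutant with fewer H3 positions changed, which is not described here. The labels give no other genotype of the strains, and do not say whether replicates were separate cultures. The p-values therefore measure only the spread between these 4 arrays, which may be technical. The strains differed strongly in genes that mark the a mating type, with log2 changes (mutant minus wild type) of -3.27 for the pheromone receptor gene STE2 and -4.57 for the pheromone gene MFA2, and the part of this in the sterol results was not tested. Effects of the H3 change and of any further strain difference cannot be told apart.

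Ergosterol is the main sterol of yeast membranes, the counterpart of cholesterol in animals. The mevalonate pathway builds farnesyl diphosphate from acetyl-CoA, squalene synthase joins farnesyl units, and a chain of membrane enzymes turns squalene into ergosterol. Several of the late enzymes need molecular oxygen and haem iron, so yeast couples sterol genes to oxygen through the haem-responsive proteins Hap1 and Rox1. The zinc-cluster activators Upc2 and Ecm22 raise sterol genes when sterol is scarce, and surplus sterol is stored as esters made by Are1 and Are2.

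Most sterol genes that changed were lower in the mutant, and the losses were spread along the whole pathway. Of 31 members bright enough to test, 14 fell, 4 rose and 13 did not pass the threshold (limma, Benjamini-Hochberg adjusted p under 0.05 over all 4476 tested genes). The 14 include ARE2, which was bright enough to test only through its wild-type signal. Over all tested genes 15.5% were called lower, 14.3% higher and 29.8% in either direction. The median log2 change of the 31 members was -0.40, against -0.03 for all tested genes. Changes are given as mutant minus wild type on the log2(signal + 16) scale, with a standard error (SE), and this scale understates the change of dim genes. In bulk RNA, fewer cells that express a gene and less of its RNA per cell cannot be told apart. The arrays of the groups did not overlap for 24 of the 31 members, which was so for 67.4% of all tested genes. The largest fall was of ERG5, a late sterol desaturase gene, at -1.14, and the largest rise was of ARE1, at 0.54.

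**Figure D1:**
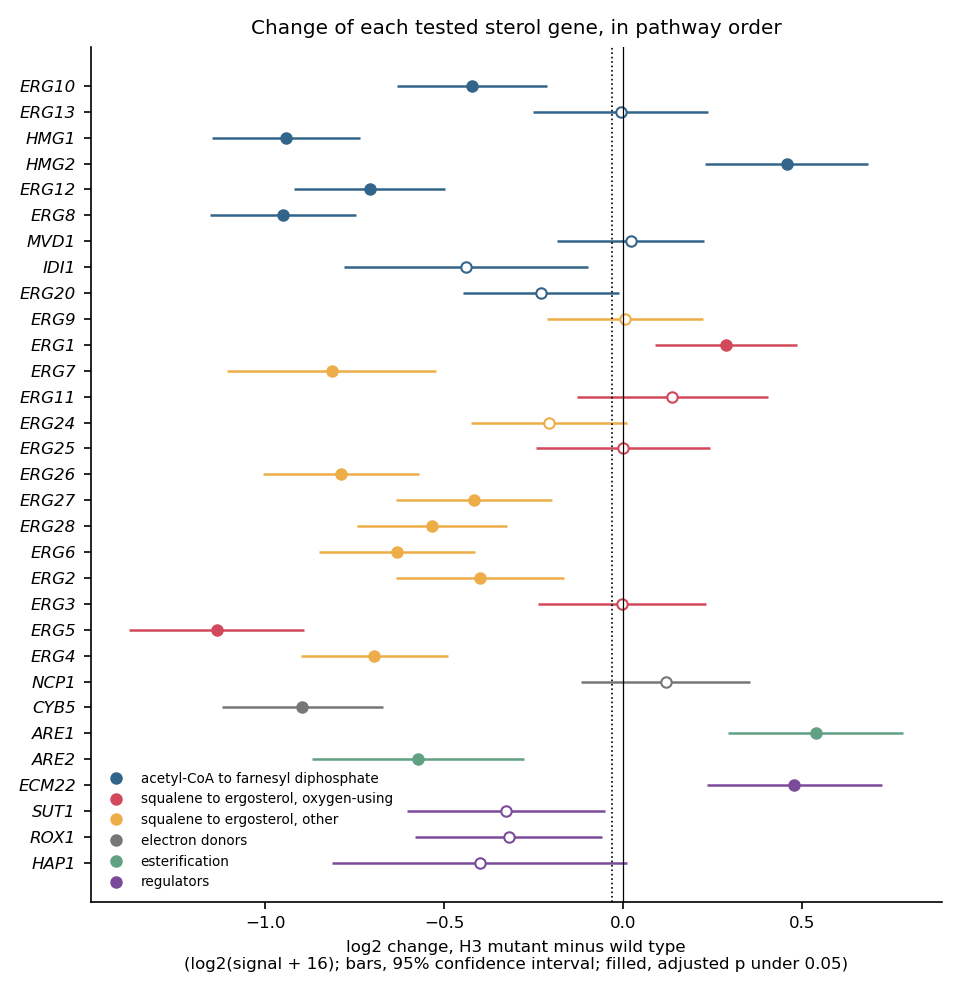
Log2 change (x axis, mutant minus wild type, log2(signal + 16)) of the 31 tested sterol genes, listed from top to bottom in pathway order and coloured by step class, with 95% confidence intervals from limma (n = 2 arrays a group). Filled points passed the adjusted threshold: 14 lie left of 0 and 4 right of it, and the dotted line is the median of all tested genes at -0.03.

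The deposited arrays share 1 trimmed mean, so each change is relative to the bulk of the array. The hybridization controls, foreign transcripts added before hybridization and read here by 9 probe sets, had geometric means of 174 and 201 in the mutant against 138 and 141 in wild type. Scaling to these controls moved the median of all tested genes to -0.39, with 55.6% called lower and 4.58% called higher. On that scale 25 members fell and 0 rose, and the members' median was -0.80. Limma's variance estimate changed as well: the lowest adjusted p over all genes was 3.4e-203, against 2.9e-08 under the deposited scaling. The added calls therefore do not reflect the shift in level alone. Relative to the median of all genes the members stood at -0.37 under the deposited scaling and at -0.41 under the control scaling. A factor common to an array moves all its genes nearly alike, so these relative values could differ little by construction, whereas the count of members that rose depended on the scaling. Because the controls enter at hybridization, neither scale measures RNA per cell.

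**Figure D2:**
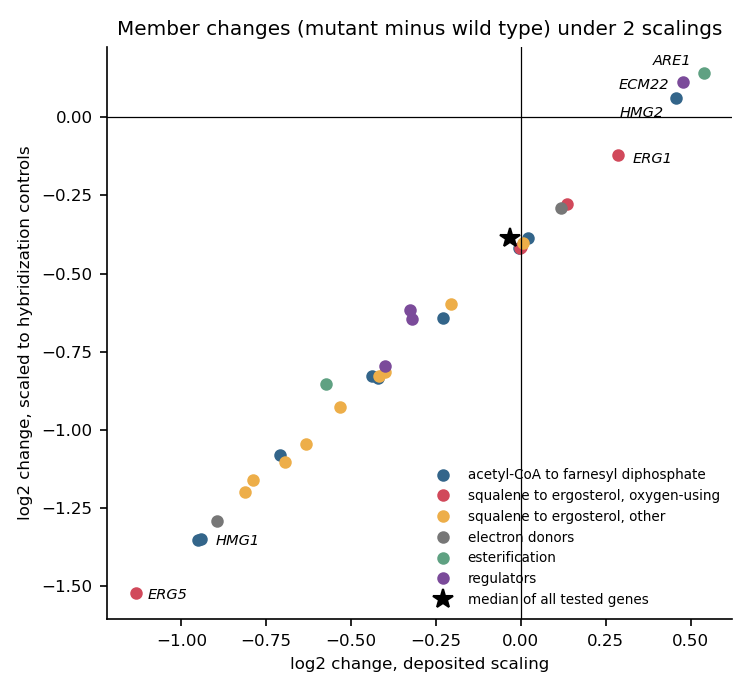
Log2 change of each tested member under the deposited scaling (x axis) and after scaling to the hybridization controls (y axis), both mutant minus wild type, coloured by step class. The star marks the median of all tested genes, at -0.03 and -0.39, and ERG5 and HMG1 lie below it while ARE1, ECM22, HMG2 and ERG1 lie above it on both axes.

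In the mevalonate steps the kinase genes and HMG1 fell while HMG2 rose. ERG8 encodes phosphomevalonate kinase, and its signals were 268.2 and 273.6 on the mutant arrays against 558.3 and 518.5 on the wild-type arrays. Its log2 change was -0.95 ± 0.09 (SE, adjusted p = 0.000119), and the groups lay far apart relative to their spread. ERG12, for the mevalonate kinase that acts just before it, gave 100.5 and 98.4 in the mutant against 171.8 and 173.4 in wild type. The fall was 0.71 on the log2 scale (adjusted p = 0.000732). ERG12 is read by 4 probe sets, and in 3 of them both mutant arrays were below both wild-type arrays. The remaining one, near the floor, ran the other way, with 34.3 and 24.9 in the mutant against 17.3 and 20.0 in wild type. ERG10, for the thiolase that opens the pathway, gave 757.8 and 738.2 against 991.2 and 1024.2 in wild type. That is a log2 change of -0.42 (adjusted p = 0.00977), a call that was lost without either mutant array (adjusted p = 0.0507 without replicate 1 and 0.0672 without replicate 2).

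HMG1 and HMG2 encode isozymes of HMG-CoA reductase, the main control point of the pathway. Hmg1 is known as the isozyme of aerobic growth, and Hmg2 is favoured when oxygen is low. HMG1 (YML075C) gave 368.2 and 357.6 in the mutant and 736.5 and 687.5 in wild type, a log2 change of -0.94 ± 0.09 (adjusted p = 0.000130). HMG2 (YLR450W) gave 267.3 and 293.3 in the mutant and 212.0 and 188.0 in wild type, a log2 change of 0.46 ± 0.10 (adjusted p = 0.00968). The 2 genes thus changed in opposite directions under the deposited scaling. Neither overlapped between groups, which was so for 67.4% of all tested genes. Within each array, HMG2 minus HMG1 on the log2(signal + 16) scale was -0.36 ± 0.12 in the mutant and -1.75 ± 0.04 in wild type (SD, n = 2 each). This within-array difference was 1.40 higher in the mutant, and a scaling factor of a whole array cancels in it apart from the added 16. An exact permutation test over 2 against 2 arrays gave p = 0.333 (two-sided), the smallest it allows. The rise of HMG2 by itself was 0.06 under control scaling (adjusted p = 0.737), and leaving out wild-type replicate 2 (adjusted p = 0.0577) or mutant replicate 2 (0.0629) ended its call.

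The other mevalonate genes did not pass. ERG13, for HMG-CoA synthase, gave a log2 change of -0.01 with a 95% confidence interval of -0.25 to 0.24. MVD1, for the decarboxylase that makes isopentenyl diphosphate, gave 0.02, with an interval of -0.18 to 0.23. For both genes the arrays of the groups overlapped. ERG20, for farnesyl diphosphate synthase, gave 807.0 and 835.6 in the mutant against 1004.1 and 927.9 in wild type (-0.23, adjusted p = 0.101). IDI1, the isopentenyl diphosphate isomerase gene, gave 175.6 and 163.1 in the mutant against 283.1 and 194.6 in wild type. Its wild-type arrays differed more from each other than those of any other mevalonate gene in relative terms, and the change of -0.44 missed the threshold (adjusted p = 0.0550). IDI1 passed without wild-type replicate 2 (-0.69, adjusted p = 0.0130) but not without wild-type replicate 1 (-0.19, adjusted p = 0.251).

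**Figure D3:**
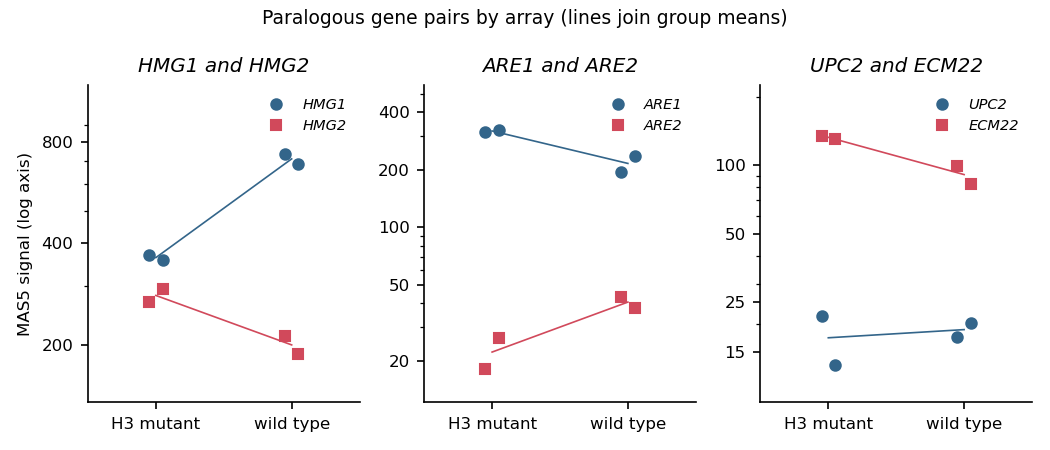
MAS5 signal (y axis, log scale) of 3 paralogous gene pairs on each array, with the H3 mutant left of wild type, 2 points a group, and lines joining group means. HMG1 and ARE2 are lower and HMG2, ARE1 and ECM22 higher in the mutant, while UPC2 overlaps, and the heights of different genes are not comparable because each has its own probes.

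The late steps were split by whether the enzyme uses molecular oxygen. Of the 9 late genes for steps without oxygen (a class that includes the scaffold gene ERG28), 7 fell, 0 rose and 2 did not pass, with a median of -0.53. Of the 5 genes for oxygen-using enzymes (ERG1, ERG11, ERG25, ERG3 and ERG5), 1 fell, 1 rose and 3 did not pass, with a median of 0.00. Of all tested genes, 15.5% were called lower, 14.3% higher and 29.8% in either direction, and the oxygen-using counts are close to these shares. The oxygen-using genes ranged from -1.14 (ERG5, the largest fall of the module) to 0.29 (ERG1), and the other late genes from -0.81 to 0.01. The medians differed by 0.53, and by 0.43 to 0.61 under the other settings tried, among them 0.51 under control scaling. On single mutant arrays the deviations from wild type had medians of -0.50 and -0.56 for the genes without oxygen use. For the oxygen-using genes these medians were 0.04 and 0.05. The class sizes are small and the members were chosen for their pathway, so no test was attached to this split.

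Among the late steps without oxygen, the first gene to fall was that of the ring closure. ERG7 encodes lanosterol synthase, which folds oxidized squalene into the sterol rings. It gave 111.6 and 151.2 in the mutant and 245.1 and 236.3 in wild type, a log2 change of -0.81 ± 0.13 (adjusted p = 0.00199). The mutant arrays differed from each other here, and the change was -1.01 without mutant replicate 2 and -0.62 without mutant replicate 1. ERG9, for squalene synthase, which stands before the oxygen-dependent branch, gave 606.0 and 542.8 in the mutant against 564.6 and 577.9 in wild type. Its groups overlapped (0.01, interval -0.21 to 0.22). ERG24, for a sterol reductase, gave 182.8 and 198.0 in the mutant against 212.7 and 231.6 in wild type, lower on both arrays without passing (-0.21, adjusted p = 0.134).

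The demethylation complex, which removes methyl groups from the sterol ring, was unevenly affected. ERG26, its sterol dehydrogenase gene, gave 100.6 and 94.0 in the mutant against 183.3 and 176.0 in wild type (log2 change -0.79, adjusted p = 0.000502). ERG27, its keto reductase gene, gave 604.2 and 566.3 in the mutant against 753.6 and 819.9 in wild type (-0.42, adjusted p = 0.0121). ERG28, which encodes the scaffold that holds the complex together, gave 195.6 and 186.6 in the mutant against 273.3 and 294.4 in wild type (-0.53, adjusted p = 0.00299). These 3 genes had no overlap between groups, which was so for 67.4% of all tested genes. ERG27 did not pass when wild-type replicate 2 (log2 change -0.36) or mutant replicate 2 (-0.37) was left out. ERG25, the oxygen-using methyl sterol oxidase gene of the same complex, gave 1859.4 and 1767.3 in the mutant against 1738.4 and 1887.9 in wild type. Its groups overlapped, with a log2 change of 0.00 and an interval of -0.24 to 0.24. The ERG28 probe set lies in a stretch of 650 tested, consecutively numbered probe sets where the mutant arrays disagreed more than elsewhere. The SD of the log2 difference between mutant replicates was 0.35 there, against 0.16 for the other tested genes, but the ERG28 mutant signals were close to each other.

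The tail of the pathway was lower except at the desaturase ERG3. ERG6, for the methyltransferase that marks fungal sterols, gave 664.7 and 708.3 in the mutant against 1108.5 and 1036.9 in wild type (log2 change -0.63, adjusted p = 0.00161). ERG2, a sterol isomerase gene, gave 1479.6 and 1541.7 in the mutant against 1945.0 and 2048.5 in wild type (-0.40, adjusted p = 0.0201), and passed in 1 of the 4 fits that left out an array. ERG4, for the reductase of the final step, gave 476.9 and 490.8 in the mutant against 812.9 and 773.4 in wild type (-0.69, adjusted p = 0.000702). These genes stood clear of the spread between replicates, ERG2 by the smallest margin.

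ERG5 (YMR015C), for the haem-containing desaturase that acts just before Erg4, had the largest change of the module. It gave 152.8 and 126.1 in the mutant and 334.7 and 313.9 in wild type, a log2 change of -1.14 ± 0.11 (adjusted p = 0.000119). The mutant mean was 0.43 of the wild-type mean, and with 1 array left out the change lay between -1.26 and -1.01. ERG5 was the exception among the oxygen users. ERG1, the squalene epoxidase gene and the target of terbinafine, gave 524.3 and 520.6 in the mutant against 429.8 and 421.0 in wild type (0.29 ± 0.09, adjusted p = 0.0367). That rise was narrow: the call was lost without any 1 array (adjusted p from 0.0809 to 0.149), and under control scaling the value was -0.12. ERG11, the lanosterol demethylase gene and target of azole drugs, gave 1225.9 and 1382.6 in the mutant against 1089.0 and 1283.2 in wild type. ERG3, a desaturase gene, gave 1546.3 and 1662.3 in the mutant against 1636.7 and 1576.9 in wild type. Both overlapped between groups, with a log2 change of 0.14 (interval -0.13 to 0.40) for ERG11 and an interval of -0.24 to 0.23 for ERG3.

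**Figure D4:**
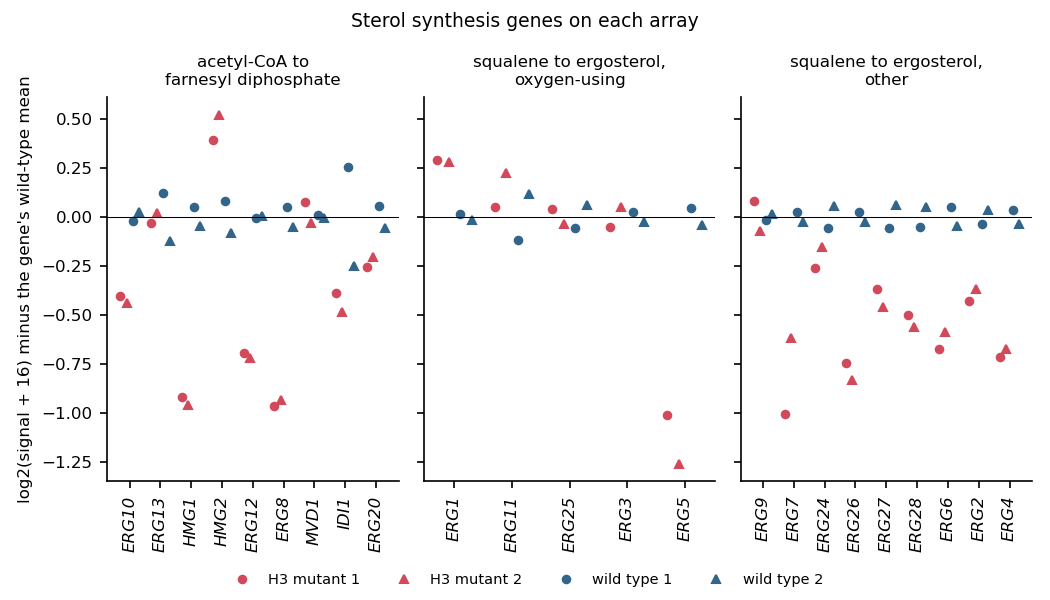
Log2(signal + 16) of each gene on each array minus that gene's wild-type mean (y axis), for mevalonate genes, oxygen-using late genes and other late genes, with 2 mutant and 2 wild-type arrays. In the right panel both mutant arrays lie below both wild-type arrays for 8 of 9 genes, all but ERG9, while in the middle panel this holds for ERG5 alone. Over all tested genes the groups did not overlap, in either direction, for 67.4%.

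Early and late steps compared as whole blocks gave nearly the same median. The 9 early genes had a median log2 change of -0.42 (4 fell, 1 rose, 4 did not pass), and the 14 late genes a median of -0.41 (8 fell, 1 rose, 5 did not pass). Of all tested genes, 15.5% were called lower and 14.3% higher. The difference of the early and late medians was -0.01. It was -0.01 under control scaling as well, where the medians were -0.83 and -0.82. The early median depended on IDI1, since without wild-type replicate 1 it was -0.19 and the difference from the late steps became 0.27.

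The electron donors of the late enzymes also differed. CYB5 encodes cytochrome b5, which passes electrons to late sterol desaturases and oxidases. It gave 184.5 and 185.8 in the mutant and 385.4 and 332.9 in wild type, a log2 change of -0.90 ± 0.10 (adjusted p = 0.000303). NCP1, the reductase gene that feeds electrons to Erg11 and other enzymes, gave 626.3 and 608.2 in the mutant against 521.6 and 616.1 in wild type. Its groups overlapped (0.12, interval -0.12 to 0.36).

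Of the esterification genes ARE1 rose, and ARE2 had a lower signal in the mutant. ARE1 and ARE2 encode related acyltransferases that store sterol as esters, and Are2 is known as the main enzyme in aerobic cells. ARE1 (YCR048W) gave 316.6 and 323.6 in the mutant and 194.8 and 238.0 in wild type, a log2 change of 0.54 ± 0.11 (adjusted p = 0.00629). ARE2 (YNR019W) gave 18.2 and 26.3 in the mutant and 43.3 and 38.0 in wild type, a log2 change of -0.57 ± 0.13 (adjusted p = 0.0115). Neither gene overlapped between groups, which was so for 67.4% of all tested genes. The mutant mean of ARE2, 22.3, lies below the testing limit of 25.1, so the gene entered the test only because its wild-type signal was high, and it was not tested with the filter at the median signal. ARE1 by itself was 0.14 under control scaling (adjusted p = 0.423), and leaving out wild-type replicate 1 (adjusted p = 0.0896) or mutant replicate 1 (0.0793) ended the call of ARE2. HES1, of the oxysterol-binding family that moves sterols between membranes, was too dim to test, with 8.6 and 7.5 in the mutant against 3.9 and 4.7 in wild type.

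Of the regulators, ECM22 rose and the others did not pass or could not be tested. ECM22 gave 134.3 and 130.7 in the mutant and 98.7 and 83.0 in wild type, a log2 change of 0.48 ± 0.11 (adjusted p = 0.0112). That value was 0.11 under control scaling (adjusted p = 0.551), and the call was lost without wild-type replicate 2 (0.0567) or mutant replicate 1 (0.0602). UPC2, its paralogue, was below the limit for testing, a signal of 25.1, with 21.6 and 13.2 in the mutant against 17.5 and 20.3 in wild type. The UPC2 probe set lies in the stretch described for ERG28, where the mutant arrays disagreed more. ROX1, the repressor of hypoxic genes, gave 53.7 and 44.4 in the mutant against 63.0 and 67.0 in wild type (-0.32, adjusted p = 0.0644). SUT1, a regulator tied to sterol uptake, gave 35.7 and 27.1 in the mutant against 44.6 and 41.8 in wild type (-0.33, adjusted p = 0.0720). Both were lower on each mutant array without passing.

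HAP1 was read by 3 probe sets that disagreed. The brightest, of a type that matches a family of sequences, gave 159.8 and 265.2 in the mutant against 279.7 and 275.4 in wild type (-0.40, adjusted p = 0.127). Another of that type gave 87.2 and 180.1 in the mutant against 195.6 and 167.6 in wild type. On both, mutant replicate 1 was low and mutant replicate 2 near wild type. The probe set of the unique type gave 75.4 and 79.4 in the mutant against 65.4 and 51.7 in wild type, a log2 change of 0.33 (adjusted p = 0.0564 without probe sets of shared sequence). In the S288C reference strain HAP1 carries a Ty element, and the labels do not name the strain background here. The direction of HAP1 is therefore uncertain.

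Related genes were taken from lists of sterol, isoprenoid, oxygen and haem genes. The counts of each list stand beside 15.5% of all tested genes called lower and 14.3% higher. Under control scaling these shares were 55.6% and 4.58%. Of 17 genes of sterol ester hydrolysis, uptake, transfer and acetylation, 16 were tested, of which 3 rose, 3 fell and 10 did not pass, with a median of 0.04. Under control scaling 2 rose and 8 fell, with a median of -0.34. The genes of the sterol-uptake transporters, which yeast uses when it cannot make sterol without oxygen, both rose. PDR11 gave 63.7 and 59.9 in the mutant and 27.9 and 26.6 in wild type, a log2 change of 0.85 (adjusted p = 0.000576). AUS1 gave 66.0 and 65.2 in the mutant and 30.0 and 31.0 in wild type (0.81, adjusted p = 0.000656). Neither transporter gene overlapped between groups, and these calls held in each fit with 1 array left out and under control scaling. Non-overlap in either direction held for 67.4% of all tested genes. Both transporter genes are dim. Neither was bright enough to test with the filter at the median signal, nor was AUS1 when its probe sets were averaged. The list had 0 higher calls with that filter and 1 with averaged probe sets. AUS1 is paired with 6 probe sets, and both mutant arrays were above both wild-type arrays in 5 of them and below in 1. ATF2, a sterol acetyltransferase gene, gave 77.7 and 83.1 in the mutant against 140.3 and 146.5 in wild type (-0.73). ATF2 is the tested neighbour of ERG1 in the reference gene order. The values of ERG1 and ATF2 had opposite signs under the deposited scaling, but both were negative under control scaling. KES1, a sterol-binding relative of HES1, gave 161.7 and 162.0 in the mutant against 250.6 and 218.0 in wild type (-0.49).

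Of 13 genes of HMG-CoA reductase turnover and of other isoprenoid users, 10 were tested, of which 3 fell, 0 rose and 7 did not pass, with a median of -0.20. Under control scaling 9 of the 10 fell and the median was -0.56, where 55.6% of all tested genes fell and their median was -0.39. RAM1 and RAM2 encode the subunits of farnesyltransferase, which attaches farnesyl to proteins. RAM1 gave 41.0 and 54.5 in the mutant against 86.5 and 77.2 in wild type (-0.62, adjusted p = 0.00746). RAM2 gave 80.8 and 81.3 in the mutant against 120.1 and 117.9 in wild type (-0.48, adjusted p = 0.00710). RER2, for dolichol synthesis, gave 74.5 and 82.2 in the mutant against 106.3 and 117.1 in wild type (-0.44, adjusted p = 0.0154). The 3 genes draw on farnesyl diphosphate, the branch point with sterols. Without mutant replicate 1 only RAM2 passed of this list.

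Of 11 tested genes known as regulated by oxygen and haem, 4 rose, 0 fell and 7 did not pass, with a median of 0.20. The list holds both hypoxic and aerobic genes, so its counts and median do not describe a single response. Control scaling gave 3 higher and 3 lower, with a median of -0.15. ANB1, a hypoxic translation factor gene repressed by Rox1, gave 102.8 and 117.6 in the mutant against 53.3 and 50.7 in wild type (0.89, adjusted p = 0.000523). CYC7, the cytochrome c isoform gene favoured at low oxygen, gave 88.8 and 82.4 in the mutant against 44.8 and 38.7 in wild type (0.82, adjusted p = 0.000873). CYB2, a haem-containing lactate dehydrogenase gene, gave 97.3 and 74.5 in the mutant against 33.1 and 43.7 in wild type (0.90, adjusted p = 0.00208). Unlike ANB1 and CYC7, the hypoxic genes COX5B (0.05), AAC3 (0.20) and the desaturase gene OLE1 (-0.24) did not pass. CYC1, the aerobic cytochrome c gene, gave 927.8 and 880.6 in the mutant against 739.8 and 743.4 in wild type (0.28, adjusted p = 0.0489), and was -0.13 under control scaling.

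All 8 genes of haem synthesis were tested, and 1 rose, 2 fell and 5 did not pass, with a median of -0.17. Control scaling gave 1 higher and 5 lower, with a median of -0.52, where 55.6% of all tested genes fell and their median was -0.39. HEM14 gave 127.3 and 122.5 in the mutant against 65.2 and 66.3 in wild type (0.79, adjusted p = 0.000595). HEM12 gave 146.6 and 179.7 in the mutant against 236.1 and 243.7 in wild type (-0.52, adjusted p = 0.00785). HEM15, for the enzyme that inserts iron, gave 127.3 and 126.4 in the mutant against 157.1 and 164.2 in wild type (-0.31, adjusted p = 0.0363). Both falls were fragile, and with 1 array left out 0 or 1 of the list was called lower. HEM13, the oxygen-using step repressed by Rox1, gave 59.4 and 101.1 in the mutant against 76.5 and 68.6 in wild type, with the mutant arrays on opposite sides of wild type. HEM1, HEM12, HEM13 and HEM14, and RAM1 and CYC7 above, lie in the same stretch of probe sets as ERG28, where the mutant arrays disagreed more. Without that stretch these genes are not tested, and the haem list had 0 higher and 1 lower.

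The 33 members lie on 11 chromosomes. The 14 members that fell had 22 tested neighbours outside the module, of which 4 fell, 2 rose and 16 did not pass, with a median log2 change of -0.10. The share of neighbours that fell was near the 15.5% of all tested genes. HMG1 lies between WAR1, which rose (0.52), and FPR3, which did not pass (-0.05), and ERG8 lies between ESC1 (0.09, not passing) and FMP42, which fell (-0.46). ERG26 was the member with both tested neighbours lower, ERP6 at -0.37 and EFM5 at -0.52.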

How the data were processed

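Biotin-labelled cRNA made from about 20 µg of total RNA was hybridized to single-colour oligonucleotide arrays, 2 of the H3 mutant and 2 of wild type. The authors deposited linear intensity values, and the submitters' processing notes name MAS5 for them. The sources used here give neither the MAS5 settings nor a genome build, so no coordinates were used. With 2% cut from each end, the mean signal was 125.1 on every array, and the values were taken as deposited.

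The platform annotation names 1 gene for 6504 of the 9335 probe sets, several for 328 and none for 2503, and those with 1 gene were used. Genes were tested with limma 3.58.1 in R 4.3.3 (lmFit, then eBayes with an intensity trend) on log2(signal + 16), with Benjamini-Hochberg adjustment. Probe sets in the dimmest 25% by mean log2 value were left untested, and the brightest probe set of a gene was kept, leaving 4476 genes, 2 residual and 7.03 prior degrees of freedom. Locus tags and gene order came from RefSeq's table for assembly R64, by gene identifier.

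Members and gene lists were chosen with earlier results of these data known, so lists are described by counts and medians without a test. Every member is accounted for, and of each related list up to 4 called genes by moderated statistic were named, STE2, MFA2, COX5B, AAC3, OLE1, HEM13 and the neighbours being chosen after their values were seen. Alternatives covered the offset, scaling, filter, variance prior, probe set choice, replicate block and left-out arrays, and leaving out probe sets of shared sequence or in the stretch of disagreeing mutant arrays, chosen after seeing the data. Plots used matplotlib 3.10.9 (Python 3.11.15).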

Additional observations from a re-analysis of the deposited data

How the results depend on the processing

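The 14 members called lower became 11 to 18 under every setting but control scaling, which called 25. The 4 called higher became 0 under control scaling and 2 at an adjusted p of 0.01, and with 1 array left out 1 (without wild-type replicate 2), 2 (without either mutant array) or 3. Over all genes 1335 calls became 2695 under control scaling, 640 at an adjusted p of 0.01, and 771 to 914 with 1 array left out. The 16 calls in related lists became 31 under control scaling and 10 to 12 with 1 array left out, the fewest without mutant replicate 1. Under control scaling the step medians were -0.83 (early), -0.82 (late), -0.42 (oxygen-using) and -0.93 (late without oxygen), and among members and the related genes named by rule, the log2 changes of opposite sign for genes called under either scaling were -0.38 for MVD1, -0.40 for ERG9, -0.42 for ERG25, -0.12 for ERG1 and -0.13 for CYC1. An offset of 64 gave -0.36 for the early and -0.45 for the other late genes, as it compresses all changes. With 1 array left out the early median lay between -0.44 and -0.19 and early minus late between -0.040 and 0.27, the highest of both without wild-type replicate 1. Oxygen-using minus other late genes was 0.45 with an offset of 64, 0.43 after quantile normalization and 0.54 to 0.61 with 1 array left out. The labels link same-numbered arrays by number alone and name no batch. Over the tested genes, their deviations from the group means had a correlation of 0.13. The replicate block called 18 members lower and 4 higher, and its added calls included IDI1 (adjusted p = 0.00101) and HAP1 (0.00258). Both calls rest largely on a variance estimate shared over genes, since replicates of IDI1 and of HAP1 lay far apart. In that fit the adjusted p of ERG5 was 2.3e-20, against 0.000119 in the main fit. Of 523 member values under other settings, 458 kept direction and call.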
